A study of Mus musculus with 4 samples.

Results

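The genes described here are 10 chosen genes of the Activin system with probe sets of their own on the array. They are the subunit genes Inha, Inhba and Inhbb, the receptor genes Acvr1, Acvr1b, Acvr2a and Acvr2b, and the genes of the inhibitors follistatin (Fst), follistatin-like 3 (Fstl3) and Bambi. The 10 genes were chosen by name, and every probe set assigned to 1 of them alone was taken. This gave 19 probe sets for 10 of the 18193 genes on the array. A further probe set assigned to Acvr2a and Orc4 together was not used. The related genes Inhbc, Inhbe and Acvr1c also had probe sets of their own, which were too dim to be tested. They are counted below with the other genes of the pathway. In the RefSeq annotation (GRCm38.p6) Inha and Inhbb lie on chromosome 1, Acvr1 and Acvr2a on 2, Acvr2b on 9, Fstl3 on 10, Inhba and Fst on 13, Acvr1b on 15 and Bambi on 18. The question was how these genes stood in KSP-positive cells (n = 2 arrays) against KSP-negative cells (n = 2 arrays). Both fractions came from CAG-GFP EB3, a 129/Ola mouse ES cell line in which the CAG promoter drives GFP ubiquitously. The cells were differentiated through embryoid bodies for 18 days with Activin at 10 ng/mL, in 2 independent experiments. Living cells were then sorted with an antibody against KSP, a cadherin of kidney epithelium encoded by Cdh16. Every array is therefore from Activin-treated cells of 1 ES cell line, and the effect of the added Activin cannot be read from these arrays.

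Activins are dimers of the beta subunits encoded by Inhba and Inhbb, and inhibins pair the alpha subunit encoded by Inha with a beta subunit. An Activin dimer binds a type II receptor, ActRIIA or ActRIIB (Acvr2a, Acvr2b), which recruits and phosphorylates the type I receptor ALK4 (Acvr1b), and ALK4 passes the signal to Smad2 and Smad3. Follistatin and Fstl3 bind Activin outside the cell and keep it from its receptors. In the embryonic rodent kidney, Activin is known to restrain branching of the ureteric bud, and follistatin counters it.

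Each array gave 1 signal per probe set, which was scaled to a common 75th percentile and raised to a floor of 12.3 where it was lower. Differences are given on the log2 scale as KSP-positive minus KSP-negative, from limma fitted to the brightest probe set of each of 12849 genes. A gene is said to have risen or fallen where its adjusted p from limma was under 0.05. Of all genes tested 1.84% rose and 1.65% fell. The sort marker Cdh16 itself had signals of 50.5 and 32.6 in KSP-positive cells and 39.3 and 26.3 in KSP-negative cells, so the fractions overlapped for the gene of the sorted protein. Of 9 renal lineage genes with a probe set of their own, 7 were tested, Lhx1 fell and none rose, and 4 of the 9 had positive differences. Of these Osr1, which the filter on dim probe sets left untested, had signals of 52.4 and 61.7 in KSP-positive cells and 14.3 and 18.4 in KSP-negative cells, without overlap. Pax8, also left untested, went the other way without overlap, with 26.4 and 2.13 in KSP-positive cells and 37.4 and 36.5 in KSP-negative cells. The fractions did not overlap for 48.9% of all genes tested. The sums of the 9 renal lineage genes were 863 and 779 in KSP-positive cells and 1177 and 1565 in KSP-negative cells. Genes of other marker lists moved with the fractions. In KSP-positive cells 12 of 14 macrophage genes and 7 of 12 mesenchymal genes rose, while 11 of 14 pluripotency genes and 6 of 10 epithelial genes fell. Of 4 erythroid and megakaryocyte genes tested, none was called. Klf4, which had a positive difference, made up most of the pluripotency sums of KSP-positive cells, and without it, a choice made after seeing the data, the sums were 2211 and 2791 in KSP-positive cells and 13317 and 22999 in KSP-negative cells. The ratio of 3' to 5' signal of actin, a sign of RNA quality, was 2.92 and 1.80 on KSP-positive arrays 1 and 2, against 1.79 and 3.55 on KSP-negative arrays 1 and 2. In sorted bulk samples, fewer cells of a type and less RNA per cell cannot be told apart.

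**Figure D1:**
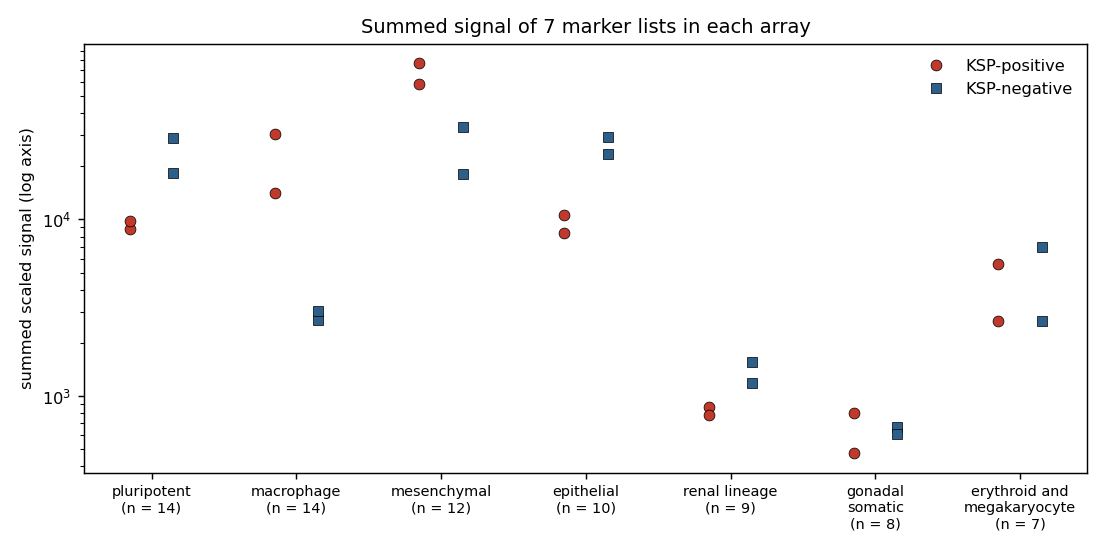
Summed scaled signal (vertical, log axis) of 7 marker lists (horizontal, with the number of genes measured) in each KSP-positive array (circles) and KSP-negative array (squares). The macrophage sums were 30372 and 14142 in KSP-positive cells and 2700 and 3031 in KSP-negative cells, and the pluripotency sums were 8785 and 9770 in KSP-positive cells and 18285 and 28708 in KSP-negative cells.

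Fst, the gene of the main soluble inhibitor of Activin, fell in KSP-positive cells. Its brightest probe set (1434458_at) had signals of 403 and 302 on KSP-positive arrays 1 and 2, against 871 and 1353 on KSP-negative arrays 1 and 2. Both KSP-positive arrays lay under both KSP-negative arrays. The log2 signal was 8.45 ± 0.30 in KSP-positive cells and 10.08 ± 0.45 in KSP-negative cells (SD, n = 2 each), which made Fst 3.11-fold lower. The log2 difference was -1.64 with a 95% confidence interval of -2.46 to -0.81 and a standard error of 0.37 (limma, adjusted p = 0.0404). Fst lies on chromosome 13 from 114452262 to 114458989 in the build GRCm38.p6.

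The other probe set of Fst (1421365_at) had signals of 43.4 and 79.8 in KSP-positive cells, against 219 and 480 in KSP-negative cells. It was thus lower by more on the log2 scale, with a difference of -2.46 (95% confidence interval -3.65 to -1.27), again without overlap. When each of 27022 probe sets was tested alone, the adjusted p from limma was 0.0895 for this probe set and 0.109 for the brighter one. In that fit 0.307% of probe sets were higher and 0.296% lower at an adjusted p under 0.05. The call of Fst from the gene fit was lost without KSP-positive replicate 2 (adjusted p = 0.0829 from limma, difference -1.43) and without KSP-negative replicate 2 (adjusted p = 0.155 from limma, difference -1.32).

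Fst fell in the same arrays as the pluripotency and epithelial genes. The epithelial sums were 8367 and 10568 in KSP-positive cells and 23388 and 29390 in KSP-negative cells, and no gene of either list was at the floor on all arrays. Their part in the lower Fst signal was not tested. Fst and Inha are also known as genes of the somatic cells of the gonads. Of 8 gonadal somatic cell genes with a probe set of their own, 5 were tested and none was called, and Amh lay at the floor on all 4 arrays. The summed signal of the 8 genes was 799 and 475 in KSP-positive cells and 666 and 611 in KSP-negative cells.

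The genes whose centred log2 values over the 4 arrays lay nearest to those of Fst were Gstm3, Pnma5, Panct2, Igsf9 and Lhx1os. Their distances from Fst ran from 0.06 to 0.20 on the log2 scale, against a median distance of 1.77 over all genes tested. Their log2 differences ran from -1.72 for Panct2 to -1.53 for Igsf9. With 4 arrays this describes these arrays only.

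**Figure D2:**
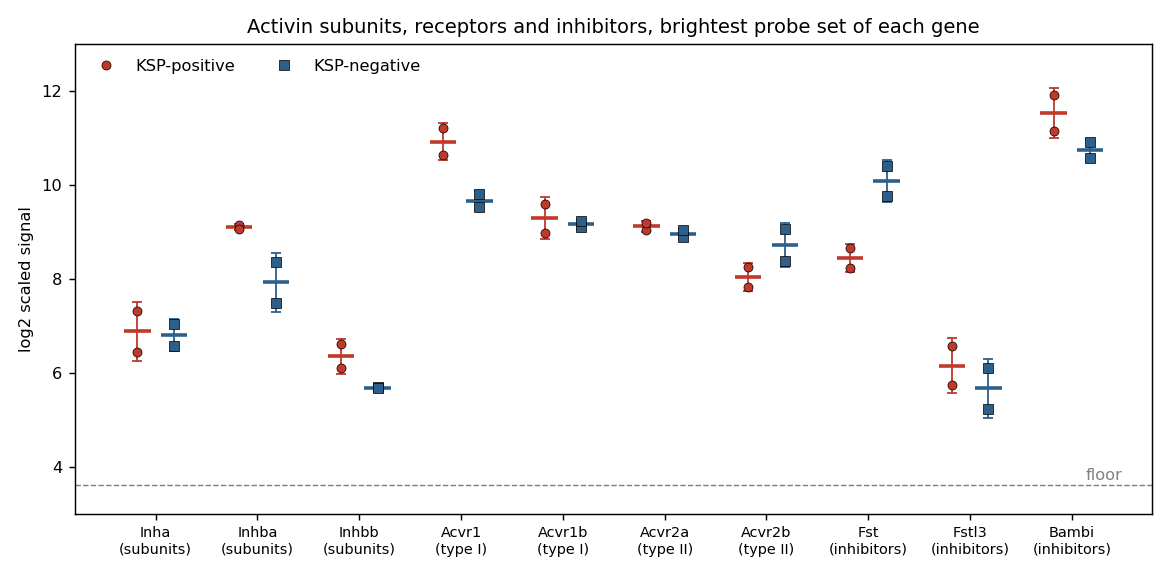
Log2 scaled signal (vertical) of the brightest probe set of the 10 genes (horizontal, with their roles) in KSP-positive cells (circles) and KSP-negative cells (squares), where bars are means, whiskers show the SD of 2 arrays and the dashed line marks the floor. Fst lies lower in both KSP-positive arrays, Inhba and Acvr1 lie higher, and Acvr1b, Inha and Fstl3 overlap between the fractions. Levels of different genes are not compared.

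Fstl3, a relative of follistatin that also binds Activin, did not pass the test. Its signals were 94.4 and 53.4 in KSP-positive cells and 69.1 and 37.4 in KSP-negative cells. Within each fraction replicate 1 was the higher one, and the fractions overlapped. The log2 difference was 0.48 (95% confidence interval -0.70 to 1.66, adjusted p = 0.704 from limma), and it ran from 0.04 to 0.92 as single arrays were left out.

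Bambi encodes a membrane protein that resembles a type I receptor but has no kinase, and so blocks signalling through the TGF-beta family. Its signals were 2266 and 3832 in KSP-positive cells, against 1519 and 1920 in KSP-negative cells. Both KSP-positive arrays lay above the KSP-negative ones, with a wide gap between the KSP-positive replicates. The log2 difference was 0.79 with a 95% confidence interval of -0.02 to 1.59 (limma, adjusted p = 0.289). Leaving out KSP-positive replicate 2 gave a difference of 0.41, and leaving out KSP-positive replicate 1 gave 1.17.

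Of the 3 inhibitor genes, 1 fell, and the 2 that did not pass the test had positive differences, as did 6221 of all 12849 genes tested. Whether Fst and Fstl3 differed from each other in this was not tested.

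Among the subunit genes, Inhba had the largest difference. Inhba encodes the beta A subunit, 2 of which make Activin A. Its signals were 568 and 531 in KSP-positive cells and 330 and 179 in KSP-negative cells. The KSP-positive replicates were close together and both lay above the KSP-negative ones, which were further apart. The log2 signal was 9.10 ± 0.07 in KSP-positive cells and 7.92 ± 0.63 in KSP-negative cells (SD, n = 2 each). The log2 difference of 1.18, a 2.26-fold higher signal, did not pass the test over all genes (95% confidence interval 0.30 to 2.05, limma adjusted p = 0.143). It was 1.62 without KSP-negative replicate 1 and 0.73 without KSP-negative replicate 2. The other probe set of Inhba (1458291_at) lay between 2.31 and 6.59 on the 4 arrays, under the floor, and gave no fold.

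Inhbb, the beta B subunit of Activin B, gave signals of 68.3 and 98.3 in KSP-positive cells and 51.7 and 51.2 in KSP-negative cells on its brighter probe set (1426858_at). The fractions did not overlap, and the log2 difference was 0.67 (95% confidence interval -0.37 to 1.72, adjusted p = 0.508 from limma). Its other probe set (1426859_at) was dim and went the opposite way, with 11.5 and 49.9 in KSP-positive cells and 29.2 and 74.9 in KSP-negative cells. There the fractions overlapped, replicate 2 was the higher one in each, and the mean lay under the filter on dim probe sets.

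Inha, the alpha subunit of the inhibins, had signals of 86.8 and 160 in KSP-positive cells and 94.4 and 132 in KSP-negative cells. The fractions overlapped, since the spread between replicates was wider than the gap between the means. The log2 difference was 0.08 (95% confidence interval -0.93 to 1.08, adjusted p = 0.955 from limma). Its sign turned to -0.36 without KSP-positive replicate 2 and to -0.17 without KSP-negative replicate 1.

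Acvr1 had the largest positive difference of the 10 genes. It encodes ALK2, a type I receptor first described as an Activin receptor that mainly carries BMP signals to other Smads. Its brightest probe set (1448460_at) had signals of 2364 and 1594 in KSP-positive cells and 895 and 737 in KSP-negative cells, so that both KSP-positive arrays were higher. The log2 signal was 10.92 ± 0.40 in KSP-positive cells and 9.67 ± 0.20 in KSP-negative cells (SD, n = 2 each). The signal was 2.39-fold higher, a log2 difference of 1.26 (standard error 0.35, 95% confidence interval 0.48 to 2.04), and did not pass the threshold (limma, adjusted p = 0.0862). It ran from 0.97 without KSP-positive replicate 1 to 1.54 without KSP-positive replicate 2.

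The 3 probe sets of Acvr1 did not move alike. The dimmest (1416786_at) had signals of 98.0 and 98.3 in KSP-positive cells and 31.7 and 5.48 in KSP-negative cells, and its log2 difference of 2.32 depends on the floor, which 1 KSP-negative array reached. The third (1416787_at) had 51.8 and 42.1 in KSP-positive cells and 44.9 and 58.0 in KSP-negative cells, which overlap, with a difference of -0.13 (95% confidence interval -1.28 to 1.02). The platform annotation assigns all 3 to the same Acvr1 transcript.

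Acvr1b, which encodes the Activin receptor ALK4, was close in the 2 fractions. Its signals were 778 and 506 in KSP-positive cells and 548 and 602 in KSP-negative cells, and both KSP-negative values lay between the KSP-positive ones. The log2 difference was 0.13 (adjusted p = 0.902 from limma), and its 95% confidence interval of -0.68 to 0.93 corresponds to 0.626-fold to 1.90-fold. It was -0.18 without KSP-positive replicate 1. Its other probe set (1422098_at) lay under the filter, with 44.7 and 16.2 in KSP-positive cells and 36.3 and 11.2 in KSP-negative cells.

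Neither type II receptor gene passed the test. Acvr2a had signals of 526 and 588 in KSP-positive cells and 472 and 525 in KSP-negative cells on its brighter probe set (1437382_at). The fractions touched without overlapping, and the log2 difference was 0.16 (95% confidence interval -0.60 to 0.92, or 0.662-fold to 1.89-fold, adjusted p = 0.861 from limma). Its other probe set (1451004_at) had 411 and 398 in KSP-positive cells and 379 and 371 in KSP-negative cells, with a difference of 0.11 (95% confidence interval -0.68 to 0.90). The replicates of both probe sets were close together in each fraction.

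Acvr2b was the other gene besides Fst with a negative difference. Its brightest probe set (1419140_at) had signals of 306 and 228 in KSP-positive cells and 335 and 532 in KSP-negative cells, without overlap. The log2 difference was -0.68 with a 95% confidence interval of -1.53 to 0.18 (limma, adjusted p = 0.402), and it was -0.34 without KSP-negative replicate 2 and -1.01 without KSP-negative replicate 1. A dimmer probe set (1439856_at) had 28.8 and 41.0 in KSP-positive cells and 127 and 84.8 in KSP-negative cells. Both KSP-positive arrays were again lower, with a log2 difference of -1.59 (95% confidence interval -2.74 to -0.45, adjusted p = 0.222 from limma over all probe sets). The last probe set (1440525_at) was at the floor on both KSP-positive arrays and on 1 KSP-negative array, where the other reached 12.4.

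**Figure D3:**
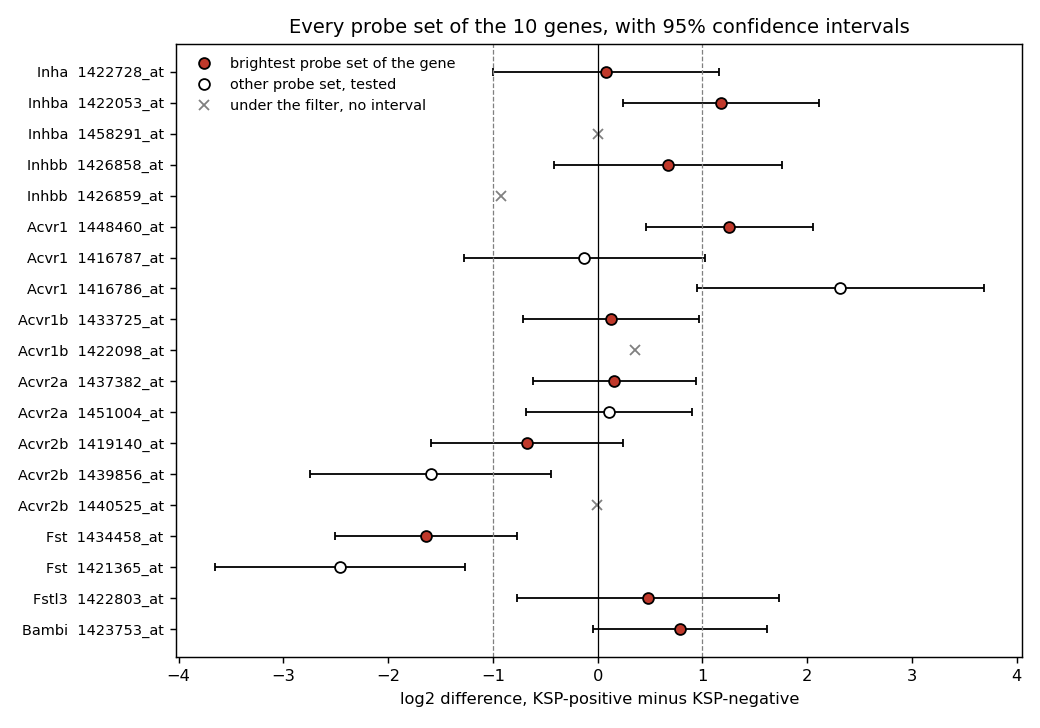
Log2 difference, KSP-positive minus KSP-negative (horizontal), for the 19 probe sets of the 10 genes (vertical), with 95% confidence intervals from the fit over all probe sets for the 15 that passed the filter (circles, filled for the brightest of a gene), crosses for the others, n = 2 arrays per fraction, and dashed lines at a 2-fold difference. Both probe sets of Fst lie left of 0 with their intervals, and the intervals of 2 of the 3 Acvr1 probe sets lie right of it while the third spans 0.

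The start regions of Inhba, Acvr1 and Acvr2b are shown because Inhba and Acvr1 were the 2 genes more than 2-fold higher, and Acvr2b was the one gene besides Fst with a negative difference. Each is the 250 bases before the start site in the RefSeq promoter table (build GRCm38.p6), which was matched for 8 of the 10 genes (all but Fst and Bambi), written 5′ to 3′ on the strand of the gene, with CpG dinucleotides in capitals. Inhba lies at chr13:16011601-16011850 on the plus strand, within the span RefSeq gives the gene. Acvr1 lies at chr2:58566829-58567078 on the minus strand, just before the gene. Acvr2b lies at chr9:119401928-119402177 on the plus strand, within the span of the gene.
Inhba: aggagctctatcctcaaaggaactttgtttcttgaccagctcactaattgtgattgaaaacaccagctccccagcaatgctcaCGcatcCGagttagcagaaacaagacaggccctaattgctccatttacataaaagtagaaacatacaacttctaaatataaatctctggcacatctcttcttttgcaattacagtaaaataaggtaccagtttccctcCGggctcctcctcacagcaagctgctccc
Acvr1: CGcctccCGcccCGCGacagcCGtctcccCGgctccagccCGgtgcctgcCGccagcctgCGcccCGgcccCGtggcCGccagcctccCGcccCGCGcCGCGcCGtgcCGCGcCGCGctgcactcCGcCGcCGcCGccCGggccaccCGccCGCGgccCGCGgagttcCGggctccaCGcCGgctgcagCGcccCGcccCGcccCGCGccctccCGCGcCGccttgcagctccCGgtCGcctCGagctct
Acvr2b: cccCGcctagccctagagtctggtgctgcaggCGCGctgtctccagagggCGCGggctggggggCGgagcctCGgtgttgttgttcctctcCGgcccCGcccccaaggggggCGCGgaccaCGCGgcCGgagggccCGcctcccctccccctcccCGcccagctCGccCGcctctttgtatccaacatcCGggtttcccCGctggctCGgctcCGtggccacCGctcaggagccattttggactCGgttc

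The start region of Acvr1 held 46 CpG dinucleotides and was 85.6% G or C, that of Acvr2b held 24 and was 72.8% G or C, and that of Inhba held 3 and was 43.2% G or C. Over the 32851 promoters of the table the median was 6 CpG dinucleotides and 52.4% G or C. The 2 genes more than 2-fold higher thus had a CpG-rich and a CpG-poor start region. The Smad box CAGAC, searched on both strands (its reverse complement is GTCTG), occurred in the windows of Inha, Acvr2a, Acvr2b and Fstl3, 4 of the 8 genes, against 42.2% of all promoters of the table. In Acvr2b it lay 233 bases before the start, and in Inhba and Acvr1 it was not found. The palindrome GTCTAGAC (0.167% of all promoters) and the Foxh1 motif TGTNNATT, searched on both strands (10.9% of all promoters), occurred in none of the 8 windows.

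Taking the 10 genes by count, Fst was the 1 that fell and 0 rose at an adjusted p under 0.05 from limma, and 9 were not called. Fst was called in 8 of 16 alternative settings, and stayed lower in all 16. Its call was lost with the values as deposited (adjusted p = 0.0562 from limma) and with quantile normalization (adjusted p = 0.0523 from limma), among others. At an unadjusted p under 0.05 from limma the counts were 1 lower and 2 higher, against 1121 lower and 1163 higher of all 12849 genes tested. At an adjusted p under 0.05, 1.65% of all genes tested fell and 1.84% rose, 3.49% in either direction. More than 2-fold higher were 2 genes, Inhba and Acvr1, against 7.92% of all genes, and more than 2-fold lower was 1, Fst, against 7.66% (15.6% in either direction). The fractions did not overlap for 7 of the 10 genes, 5 higher and 2 lower in KSP-positive cells, against 48.9% of all genes, 24.4% higher and 24.6% lower. The median log2 difference was 0.32 for the 10 genes and -0.03 for all genes tested. All 10 genes passed the filter on dim probe sets, as did 15 of their 19 probe sets.

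**Figure D4:**
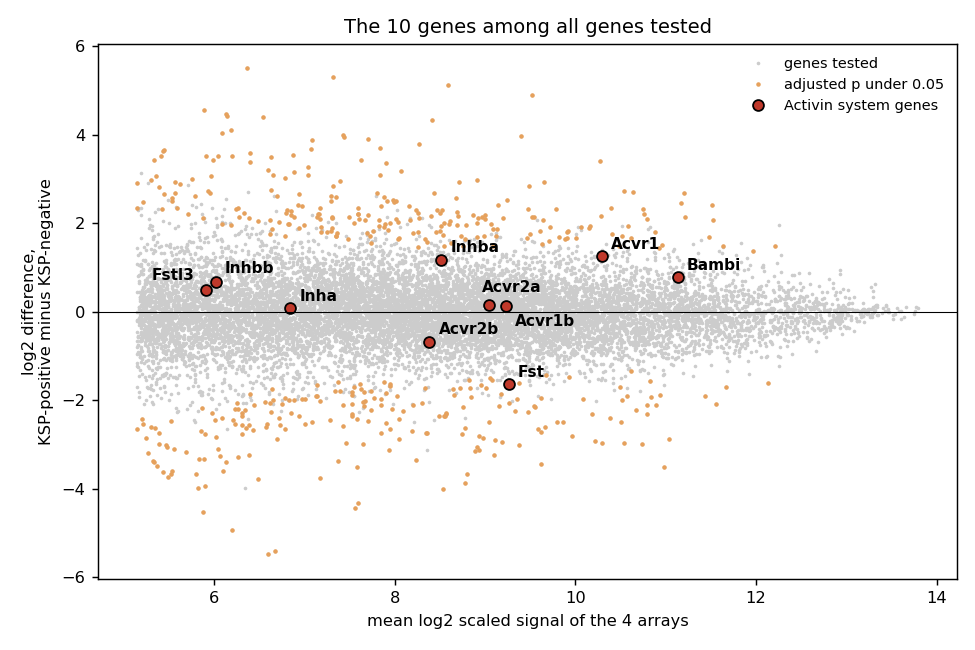
Log2 difference, KSP-positive minus KSP-negative (vertical), against the mean log2 scaled signal of the 4 arrays (horizontal) for 12849 genes, with genes at an adjusted p under 0.05 from limma in orange and the 10 Activin system genes as labelled red circles. Fst lies among the called genes with a difference of -1.64, and the other 9 lie within the cloud of genes not called.

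Inhba and Acvr1 were higher in the same arrays as mesenchymal and macrophage genes. The mesenchymal sums were 76348 and 58041 in KSP-positive cells and 33306 and 18027 in KSP-negative cells, and no mesenchymal or macrophage gene was at the floor on all arrays, though C1qa was at the floor on both KSP-negative arrays. The part of these cells in the signals of Inhba and Acvr1 was not tested.

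Other genes of the pathway were counted in the same fit. Of 46 such genes with a probe set of their own, 40 were tested, 6 fell, 1 rose and 33 did not pass the test. For comparison, 1.65% of all genes tested fell and 1.84% rose. The median log2 difference was -0.23, against -0.03 for all genes tested. More than 2-fold lower were 14, and 5 were more than 2-fold higher, against 7.66% and 7.92% of all genes tested. Nodal, a ligand that uses the Activin receptors, had signals of 139 and 196 in KSP-positive cells and 903 and 2313 in KSP-negative cells, 8.75-fold lower (adjusted p = 0.00725 from limma). Its log2 difference of -3.13 was -3.81 without KSP-negative replicate 1 and -2.45 without KSP-negative replicate 2. Tdgf1, the co-receptor Cripto through which Nodal reaches Acvr1b, was 12.8-fold lower (adjusted p = 0.0147 from limma, and 0.0675 when every probe set was tested alone). Its log2 difference of -3.68 was -4.87 without KSP-negative replicate 1 and -2.48 without KSP-negative replicate 2. Of the 3 ligands tested, Nodal was the one that fell.
Of 11 related receptors and co-receptors tested, Tdgf1 fell and Tgfbr3 rose. Tgfbr3 encodes betaglycan, which binds inhibin and raises its affinity for the type II receptors. Its signals were 6253 and 4495 in KSP-positive cells and 2069 and 1750 in KSP-negative cells, 2.79-fold higher (adjusted p = 0.0385 from limma). This call was lost without KSP-positive replicate 1 (adjusted p = 0.216 from limma) and without KSP-negative replicate 2 (adjusted p = 0.107 from limma), where the log2 difference of 1.48 was 1.24 and 1.36. Of 7 other secreted antagonists tested, Lefty2, which blocks Nodal, had signals of 47.6 and 40.7 in KSP-positive cells and 156 and 493 in KSP-negative cells, 6.30-fold lower (adjusted p = 0.0260 from limma).

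None of 15 intracellular transducers and brakes passed the test. At a limma p under 0.05 without adjustment 2 of them were higher and 2 were lower, against 1163 higher and 1121 lower of all 12849 genes tested. Smad2 and Smad3, which carry the Activin signal, had log2 differences of -0.04 and -0.20. The smallest p values belonged to Foxh1, the partner of Smad2 at Nodal targets, with a difference of -1.89 (adjusted p = 0.0629 from limma), and to Smad6, a brake on BMP signals, with one of 1.38 (adjusted p = 0.106 from limma). Of 4 transcriptional targets tested, the mesendoderm factors Eomes, Mixl1 and Foxa2 fell, by 8.35-fold, 12.1-fold and 4.04-fold (adjusted p = 0.00736, 0.0155 and 0.0254 from limma). Without KSP-negative replicate 2 the calls of Lefty2, Mixl1 and Foxa2 were lost (adjusted p = 0.176, 0.101 and 0.134 from limma). Their log2 differences were then -1.83 for Lefty2, against -2.66 with all arrays, -2.63 for Mixl1, against -3.59, and -1.79 for Foxa2, against -2.01. Without KSP-negative replicate 1 the differences were -3.48 for Lefty2 and -4.55 for Mixl1. These genes fell in the same arrays as the pluripotency genes, whose part in them was not tested.

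**Figure D5:**
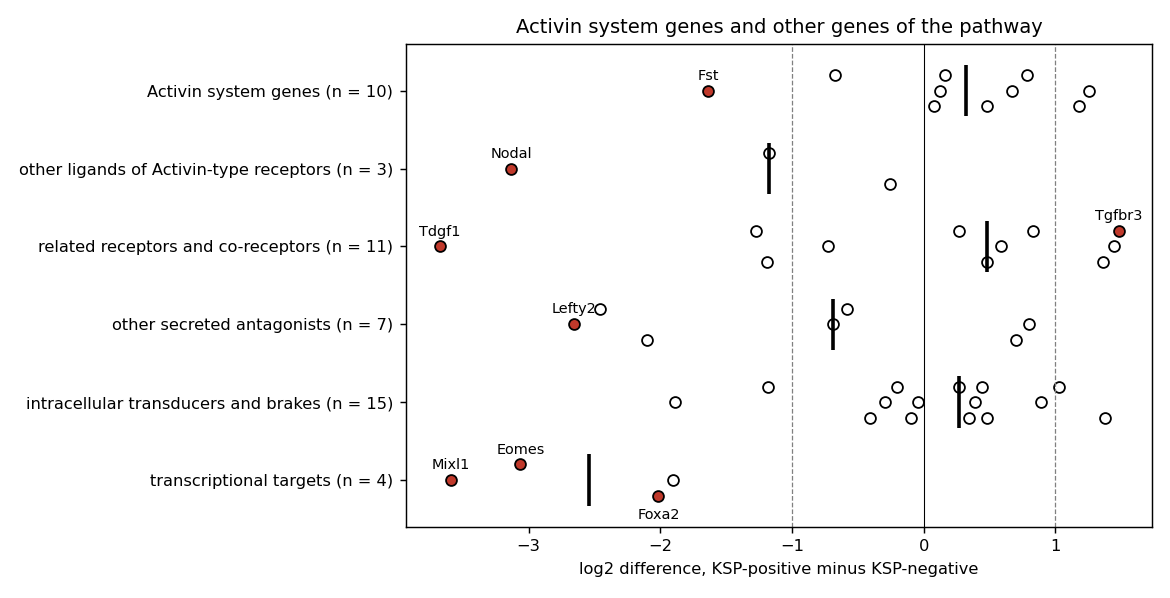
Log2 difference, KSP-positive minus KSP-negative (horizontal, n = 2 arrays each), of the 10 Activin system genes and of 5 lists of other pathway genes (vertical, with the number tested), where filled points passed the limma test at an adjusted p under 0.05 and open ones did not, with bars for medians and dashed lines at a 2-fold difference. The called genes lie to the left apart from Tgfbr3 at 1.48, and Fst is the one called gene of the top row.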

How the data were processed

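RNA of 2 KSP-positive and 2 KSP-negative samples was measured on the Affymetrix mouse genome arrays that the methods name. The deposited values are linear signal intensities per probe set, which the authors made with MAS5 according to the submitters' notes; the paper also names GeneSpring, without its setting. Here arrays were scaled to a shared 75th percentile of 281, raised to a floor of 12.3 (the 20th percentile over all values) and converted to log2. Probe sets whose mean was under the 40th percentile were dropped, leaving 27022 of 45037, and the brightest represented its gene. limma 3.58.1 (R 4.3.3; empirical Bayes with trend, Benjamini-Hochberg adjustment) compared the fractions, and was tested on simulated data. The number of arrays limits the precision. Symbols came from the platform annotation, updated through RefSeq. Figures used matplotlib 3.10.9.

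The 10 genes and all lists were chosen with earlier results of these data known. The rule for names took the 10 genes, the 5 genes nearest to the one with the smallest p, of each pathway list the called genes (or else 2 with the smallest p) and up to 2 of the brightest genes of marker lists. Cdh16, Lhx1, Osr1, Pax8, Amh, C1qa, Smad2, Smad3, Inhbc, Inhbe and Acvr1c, and Klf4 as the gene left out of a sum, were named after their values were seen. Gdf3 was in a pathway list and in the pluripotency list. Alternatives were other scalings, floors, filters, probe set summaries and variance settings, the methods' t-test, a block for the replicate number, and leaving out single arrays. The methods name a t-test or ANOVA for the results in general. For the arrays the paper names GeneSpring and a 2-fold threshold, and no test of single genes. Listed genes that lacked their own probe set in the annotation used, and withheld items, are not reported.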

Additional observations from a re-analysis of the deposited data

How the results depend on the processing

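The call of Fst, the 1 lower gene of the 10, was lost (0 lower) with the values as deposited (difference -1.73, adjusted p = 0.0562 from limma), with quantile normalization (-1.58, adjusted p = 0.0523 from limma), and at an unchanged -1.64 with no filter, with every probe set tested alone, without the variance trend and in the methods' t-test, where its adjusted p was 0.328, 0.109, 0.0743 and 0.513. Inha turned to -0.014 with the values as deposited. With no filter and in the methods' t-test, 0 genes of the pathway lists and 0 of all genes were called in either direction. The lowest adjusted p of any gene was 0.201 with no filter in limma and 0.115 in the methods' t-test. The fit with no filter took in genes at the floor on all 4 arrays, such as Amh. Such genes have no spread, so the adjusted p of that fit carries little weight. The loss of Fst in these settings was therefore not particular to Fst. The unadjusted p was under 0.05 for 1184 higher and 1091 lower genes with no filter in limma, and for 666 and 570 in the methods' t-test. Every probe set alone gave 83 higher and 80 lower calls, 1995 and 1878 over 2-fold, 3 probe sets of the 10 genes over 2-fold lower, and 0 higher and 2 lower pathway calls. Values as deposited gave 352 lower genes at an adjusted p under 0.05, with a median of all genes of -0.12, against -0.03 with scaling. The filter at the 60th percentile left 643 genes over 2-fold lower. Averaging the probe sets of each gene put 2 of the 10 genes over 2-fold lower. Higher pathway calls numbered 2 with quantile normalization and with robust variances, and 0 without the trend.

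No source ties the replicate numbers to the experiments. Same-numbered arrays deviated together with a correlation of 0.166 over 12849 genes in only 2 pairs. The crossed pairing gave -0.166, since with 2 arrays per fraction the values mirror each other, so the sign had to favour either pairing. With the replicate number as a block, Inhba (1.18, adjusted p = 0.0437 from limma) and Acvr1 (1.26, adjusted p = 0.0201 from limma) were also called, 2 higher of the 10 genes. The pathway calls were then 3 higher and 12 lower, and those of all genes 571 and 560.

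Leaving out single arrays, the 10 genes had 0 to 1 lower calls, 1 to 2 over 2-fold higher and 1 to 2 over 2-fold lower. Pathway calls ran from 0 to 3 higher and from 3 to 9 lower, and calls of all genes from 166 to 412 higher and from 104 to 504 lower, with 753 to 1649 over 2-fold lower. Fst ran from -1.96 to -1.32, Inha from -0.36 to 0.52 and Acvr1b from -0.18 to 0.44, and the lone array was taken to vary like the other fraction. The causes of these changes were not tested.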
